A study of Mus musculus with 12 samples.

Results

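The genes described here are the receptor for macrophage colony-stimulating factor, Csf1r, the macrophage surface molecule Adgre1 (F4/80) and 7 transcription factors of the macrophage lineage, namely Spi1 (PU.1), Runx1, Maf (c-Maf), Mitf, Cebpa, Cebpb and Cebpd. They were taken by name, 9 genes of the 43131 in the table. Primary bone marrow-derived macrophages (BMDMs) of C57BL/6 mice had been grown for 7 days with 50 ng/mL M-CSF, which is the protein ligand of Csf1r and was given to every group. The mice carried a tlr4 gene flanked by loxP sites (tlr4f/f), either alone or with Cre recombinase expressed from the lysozyme M locus (tlr4f/f-lysM-cre), which acts in myeloid cells. Cells of each genotype were left untreated (LPS-) or received 1 µg/mL lipopolysaccharide for 6 h (LPS+), with 3 RNA-seq libraries in each of the 4 groups. The labels do not say that these came from separate mice, so p-values measure the spread between libraries, which may be technical.

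Macrophages arise from bone marrow progenitors under a small set of DNA-binding proteins. PU.1 is the ETS-family factor that all macrophages need, and together with RUNX1 and C/EBP proteins it acts at the regulatory elements of Csf1r. The receptor is a tyrosine kinase for M-CSF and IL-34, and its signal keeps macrophages alive. C/EBPα is known for granulocyte-monocyte progenitor fate and restrains cell division, while C/EBPβ and C/EBPδ are known as factors of inflammatory gene expression. c-Maf is linked to Il10 expression and self-renewal control in macrophages, and MITF belongs to the MiT/TFE family that acts on lysosomal and osteoclast genes.

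The targeted gene went against the column headings. Tlr4 was at 76.7 to 147 CPM (counts per 1000000 of the TMM-scaled library size) in the LPS- tlr4f/f libraries and at 95.1 to 117 CPM in the LPS- tlr4f/f-lysM-cre ones. It was at 24.3 to 31.1 CPM in the LPS+ tlr4f/f libraries and at 24.6 to 27.5 CPM in the LPS+ tlr4f/f-lysM-cre ones, so it separated the libraries by the headed treatment and not by the headed genotype. Which tlr4 exon the deletion removes is not given in the sources used here, so reads outside it may be counted. Lyz2, the gene whose locus carries Cre, was at 5950 CPM or more in every library headed LPS- and at 75.6 CPM or less in every library headed LPS+. Il1b, an LPS-induced cytokine, was at 6.93 CPM or less in all libraries headed tlr4f/f and at 1640 CPM or more in those headed tlr4f/f-lysM-cre. The LPS- heading of tlr4f/f-lysM-cre and the LPS+ heading of tlr4f/f may thus be exchanged, which could not be settled here. On the exchanged reading Tlr4 and Lyz2 divide the libraries by genotype and Il1b divides them by treatment. Group names below are the headings, each comparison is given as headed, and on the exchanged reading the headed genotype difference without LPS becomes the LPS effect in tlr4f/f, the headed genotype difference with LPS becomes the LPS effect in tlr4f/f-lysM-cre, and the 2 headed LPS effects become genotype differences without and with LPS.

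The libraries held 33577087 to 56445268 counts over 1 transcript row per gene. Replicates were spread more widely in the groups headed LPS- (biological coefficient of variation 48.4% and 42.7%) than in those headed LPS+ (8.78% and 9.02%). The summed level of 20 macrophage genes was between 14900 and 29700 CPM in all libraries. Erythroid, B cell and T cell markers stayed at 6.91 summed CPM or less and the neutrophil markers at 241 or less. Of 6 mast cell and basophil markers 1 reached 1 CPM, the histidine decarboxylase gene Hdc, at 15.2 CPM or more in the libraries headed lysM-cre and below 1 CPM in the others, and the 7 dendritic markers summed to 3.23 to 13.2 CPM against 1.1 CPM or less. Their part in the results was not tested. The 9 fibroblast markers were not uniform. They summed to 761, 71.5 and 11.8 CPM in the LPS- tlr4f/f libraries and to 1120, 206 and 1740 CPM in the LPS- tlr4f/f-lysM-cre ones, against 24.6 to 66.8 CPM in the libraries headed LPS+, with Col1a1, a collagen of fibroblasts, as the most abundant. Some of the factors below are also expressed by fibroblasts, and the results are also given without the 3 libraries above 500 CPM where that changed a call.

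**Figure D1:**
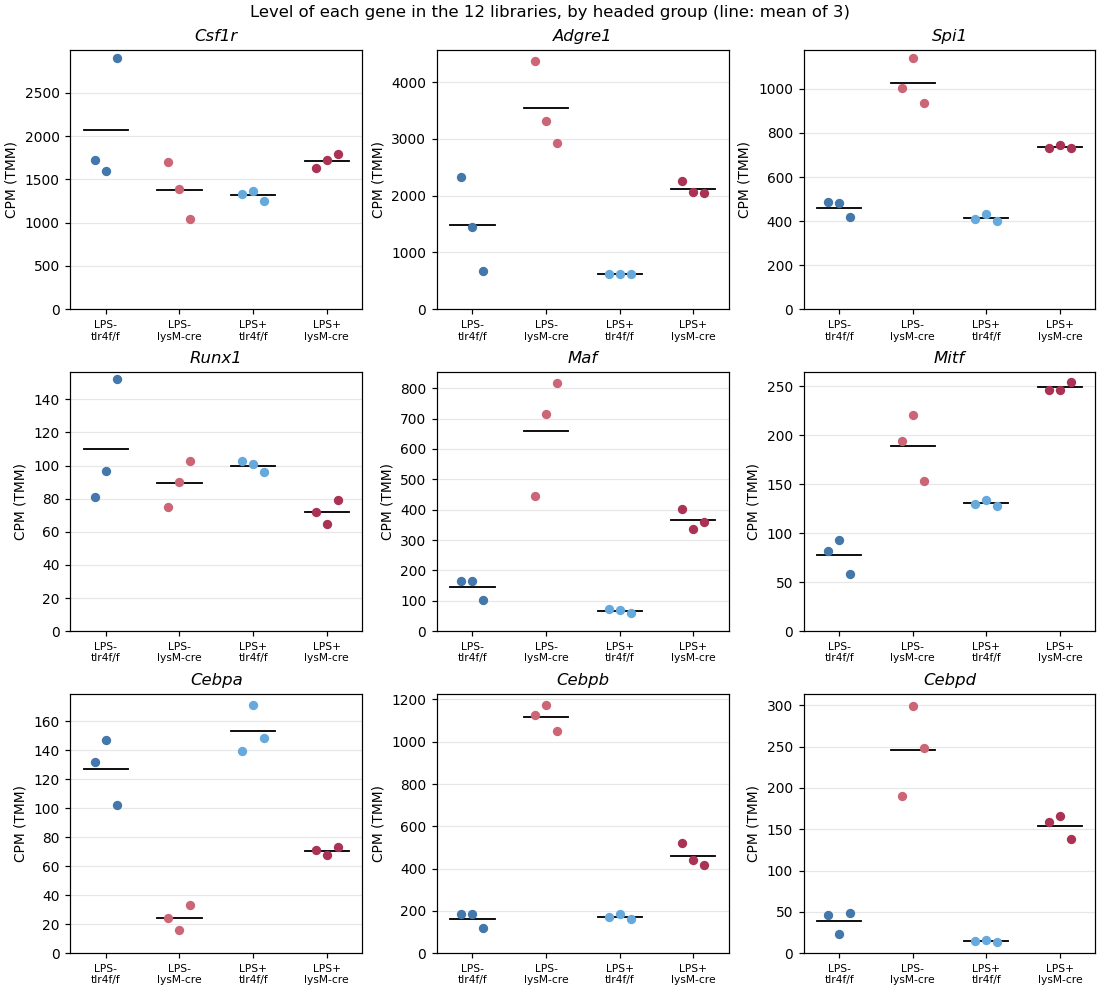
Level of the 9 genes in each of the 12 libraries, in CPM after TMM scaling (vertical axis from 0, its own scale for each gene), by headed group. Points are libraries and lines are means of 3. Cebpb, Cebpd, Maf, Mitf, Adgre1 and Spi1 lie higher in each lysM-cre group than in the tlr4f/f group of the same headed treatment. Cebpa lies lower there.

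Csf1r (chr18:61100598-61132149, mm10, plus strand) was among the most abundant transcripts in all groups. It was at 1728, 1591 and 2901 CPM in the LPS- tlr4f/f libraries, at 1704, 1384 and 1039 CPM in the LPS- tlr4f/f-lysM-cre ones, at 1325, 1367 and 1248 CPM in the LPS+ tlr4f/f ones and at 1629, 1719 and 1788 CPM in the LPS+ tlr4f/f-lysM-cre ones. Per kilobase of transcript (RPKM), its mean level stood between the 98.1 and 99.4 percentiles of the 15775 genes kept over the groups. Both groups headed LPS- overlapped, and 1 library headed LPS- tlr4f/f stood far above the other two. The receptor was lower in the libraries headed LPS+ than LPS- in tlr4f/f without overlap, but the log2 fold change of -0.63 ± 0.24 (SE) had an adjusted p of 0.181 by edgeR. With LPS as headed, Csf1r was higher in tlr4f/f-lysM-cre by a log2 fold change of 0.38 ± 0.06 (adjusted p = 0.00013), which is under the 2-fold threshold used for calling a differentially expressed gene (DEG). Csf1r shares 873 exonic bases with Hmgxb3 on the opposite strand, and the library kit keeps no strand. In bulk RNA, fewer cells that express a gene and less of its RNA per cell cannot be told apart.

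Adgre1 (chr17:57358691-57483527, plus strand) encodes F4/80, the surface molecule by which mouse macrophages are commonly sorted. It was at 2328, 1446 and 673 CPM in the LPS- tlr4f/f libraries and at 4381, 3321 and 2925 CPM in the LPS- tlr4f/f-lysM-cre ones. The LPS+ tlr4f/f libraries were at 626, 628 and 623 CPM and the LPS+ tlr4f/f-lysM-cre ones at 2252, 2071 and 2044 CPM. Thus every library headed lysM-cre was above every tlr4f/f library of the same headed treatment. With LPS as headed, the difference was a log2 fold change of 1.76 ± 0.06 (adjusted p = 6.3e-11). Without LPS as headed it was 1.25 ± 0.47 with an adjusted p of 0.0777 (DESeq2 called it at 0.0091), where the tlr4f/f libraries alone spanned from 673 to 2328 CPM. By RPKM, Adgre1 was the most abundant of the 9 genes in both groups headed lysM-cre, and Csf1r was the most abundant in both groups headed tlr4f/f.

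Spi1 (chr2:91082390-91115756, plus strand), which encodes PU.1, varied little within groups, with a coefficient of variation of 1.28 to 10.1%. It was at 485, 480 and 419 CPM in the LPS- tlr4f/f libraries, at 1002, 1140 and 936 CPM in the LPS- tlr4f/f-lysM-cre ones, at 410, 432 and 400.2 CPM in the LPS+ tlr4f/f ones, and at 732, 747 and 730 CPM in the LPS+ tlr4f/f-lysM-cre ones. The groups headed tlr4f/f overlapped each other, and both groups headed lysM-cre stood above them. Without LPS as headed, Spi1 was called higher in tlr4f/f-lysM-cre by a log2 fold change of 1.14 ± 0.18 (adjusted p = 0.00444). With LPS as headed the difference was 0.82 ± 0.05 (adjusted p = 3.0e-08), short of 2-fold. Between the groups headed lysM-cre it was lower with LPS at a log2 fold change of -0.47 ± 0.11 (adjusted p = 0.0257).

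Runx1 (chr16:92601466-92826149, minus strand) encodes the RUNX factor that opens hematopoietic enhancers, and it was called in none of the comparisons. Its level was 80.8, 97.0 and 152 CPM in the LPS- tlr4f/f libraries, 75.0, 89.9 and 103 CPM in the LPS- tlr4f/f-lysM-cre ones, 103, 101 and 95.8 CPM in the LPS+ tlr4f/f ones, and 71.9, 64.9 and 79.3 CPM in the LPS+ tlr4f/f-lysM-cre ones. Groups overlapped in 3 of the 4 comparisons. With LPS as headed, Runx1 was lower in tlr4f/f-lysM-cre by a log2 fold change of -0.48 ± 0.07 (adjusted p = 7.0e-05), under 2-fold.

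The transcript rows of Runx1 also differed from each other by group. Runx1 is read from a distal and a proximal start, known as P1 and P2, which give proteins with different amino ends. The table has 4 rows for it, from either start and with or without a 192-base exon (chr16:92644154-92644345). The level given above is that of the proximal-start row with this exon. Rows were counted separately, so reads shared by all rows cancel when rows are subtracted. The count of the proximal-start row exceeded that of the distal-start row by 8.98%, 7.68% and 9.25% of the proximal-row count in the LPS- tlr4f/f libraries and by 21.4%, 28.3% and 26.2% in the LPS- tlr4f/f-lysM-cre ones. The excess was 4.55%, 3.37% and 4.79% in the LPS+ tlr4f/f libraries and 15.02%, 12.4% and 13.8% in the LPS+ tlr4f/f-lysM-cre ones. No 2 groups overlapped in this excess. The excess, which is reads particular to the proximal start less those particular to the distal start, was 133 to 865 counts per library, and an exact permutation test of 3 against 3 libraries cannot give a two-sided p below 0.10. The proximal row is also 1335 bases longer, so an excess above 0 has no meaning by itself, only its differences between groups. Reads of the 192-base exon made up 4.63 to 9.70% of the proximal-row count. In this measure the LPS- tlr4f/f-lysM-cre libraries lay at 8.03% to 9.70% and all others at 6.93% or less. The sequences before the 2 starts (RefSeq, GRCm38.p6, minus strand) are shown because the row difference lies between them, the proximal one at chr16:92697330-92697579 and the distal one at chr16:92826150-92826324, without bases annotated as transcribed. Capitals mark the letters GAGGAA of PU.1-type ETS sites or their reverse complement, which 23.3% of 32851 promoters hold in 250 bases.
Runx1 proximal: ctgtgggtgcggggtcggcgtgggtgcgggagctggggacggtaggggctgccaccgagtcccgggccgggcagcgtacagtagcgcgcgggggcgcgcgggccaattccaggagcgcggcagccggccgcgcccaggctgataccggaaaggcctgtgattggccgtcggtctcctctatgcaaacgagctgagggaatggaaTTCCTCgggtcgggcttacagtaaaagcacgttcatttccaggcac
Runx1 distal: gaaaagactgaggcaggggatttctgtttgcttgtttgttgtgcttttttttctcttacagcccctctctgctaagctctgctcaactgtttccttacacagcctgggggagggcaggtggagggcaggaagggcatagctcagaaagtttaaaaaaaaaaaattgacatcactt
The proximal sequence held 1 such match, 46 to 41 bases before the start, and the distal sequence none. Neither held the RUNX letters TGTGGT on either strand, which 14% of promoters do.

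**Figure D2:**
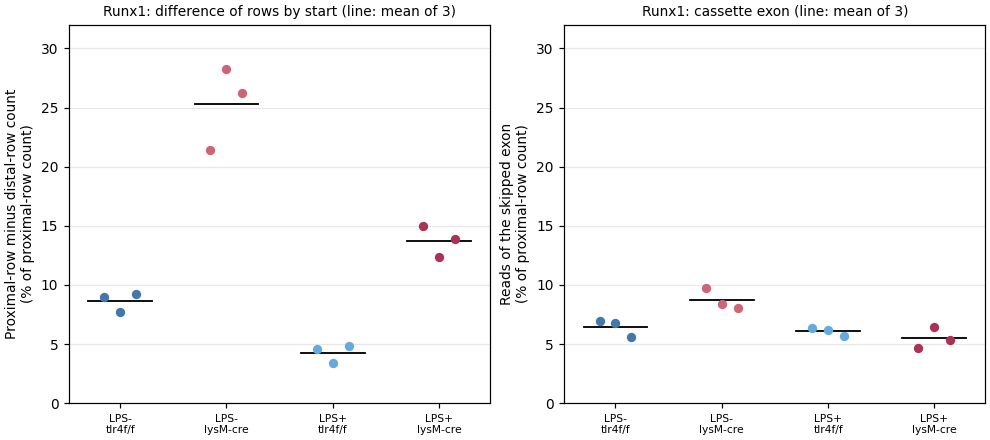
Difference of the Runx1 proximal-start and distal-start row counts (left) and reads of the 192-base exon (right), both in percent of the proximal-row count, for each library by headed group, with lines at the means of 3. On the left the groups are separate, from 3.37 to 4.79% in LPS+ tlr4f/f up to 21.4 to 28.3% in LPS- tlr4f/f-lysM-cre.

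Maf (chr8:115682942-115707794, minus strand) was at 167, 164 and 102 CPM in the LPS- tlr4f/f libraries and at 444, 713 and 816 CPM in the LPS- tlr4f/f-lysM-cre ones. The LPS+ tlr4f/f libraries were at 73.3, 71.2 and 58.7 CPM and the LPS+ tlr4f/f-lysM-cre ones at 402, 337 and 358 CPM. No group overlapped another. Maf was called higher in tlr4f/f-lysM-cre both without LPS as headed, by a log2 fold change of 2.18 ± 0.32 (adjusted p = 0.00335), and with LPS, by 2.43 ± 0.10 (adjusted p = 1.2e-08). As headed, the log2 fold change of Maf with LPS was -0.84 ± 0.23 in tlr4f/f-lysM-cre (adjusted p = 0.0381) and -1.07 ± 0.21 in tlr4f/f (adjusted p = 0.0635), neither of them called. The antisense gene Gm15655 overlaps 440 exonic bases of Maf and held 365 to 4017 counts, and reads of the pair cannot be told apart without strand.

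Mitf (chr6:97807052-98021349, plus strand) was at 81.6, 93.0 and 58.0 CPM in the LPS- tlr4f/f libraries, at 194, 220.2 and 153 CPM in the LPS- tlr4f/f-lysM-cre ones, at 130.1, 134 and 128 CPM in the LPS+ tlr4f/f ones and at 246, 246 and 255 CPM in the LPS+ tlr4f/f-lysM-cre ones. As headed, it was higher in the LPS+ than in the LPS- libraries of both genotypes, without overlap. Neither difference passed, with a log2 fold change for tlr4f/f of 0.78 ± 0.18 (adjusted p = 0.0757) and for tlr4f/f-lysM-cre of 0.41 ± 0.14 (adjusted p = 0.0700). The headed genotype difference was called without LPS at 1.27 ± 0.23 (adjusted p = 0.00682), and with LPS it was 0.93 ± 0.05 (adjusted p = 6.4e-09), just short of 2-fold. The lowest of the 14 Mitf transcript rows held 85.9 to 91.1% of the count of the highest.

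Of the 3 C/EBP genes, Cebpa ran opposite to Cebpb and Cebpd between the headed genotypes. Cebpb (chr2:167688915-167690418, plus strand) was at 184, 186 and 117 CPM in the LPS- tlr4f/f libraries and at 1125, 1174 and 1052 CPM in the LPS- tlr4f/f-lysM-cre ones. Of the libraries headed LPS+, the tlr4f/f ones were at 169, 184 and 159 CPM and the tlr4f/f-lysM-cre ones at 523, 442 and 417 CPM. The groups headed tlr4f/f overlapped, and the 2 groups headed lysM-cre stood apart from them and from each other. Without LPS as headed, Cebpb was called higher in tlr4f/f-lysM-cre by 2.77 ± 0.25 on the log2 scale (adjusted p = 0.00081), and with LPS by 1.43 ± 0.08 (adjusted p = 9.3e-08). It was the 1 gene of the 9 called in the headed LPS comparison of tlr4f/f-lysM-cre, in which it fell by 1.27 ± 0.13 on the log2 scale (adjusted p = 0.00205). Cebpb shares 312 exonic bases with Tmem189 on the opposite strand, which held 5123 to 17127 counts.

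Cebpd (chr16:15887286-15891031, plus strand) was at 46.2, 22.7 and 48.7 CPM in the LPS- tlr4f/f libraries and at 190, 299.6 and 248 CPM in the LPS- tlr4f/f-lysM-cre ones. It was at 14.2, 16.4 and 13.7 CPM in the LPS+ tlr4f/f libraries, the lowest mean RPKM of all 9 genes in any group, and at 159, 166 and 139 CPM in the LPS+ tlr4f/f-lysM-cre ones. All groups were separate. The log2 fold change between the headed genotypes was 2.64 ± 0.34 without LPS (adjusted p = 0.0023) and 3.38 ± 0.09 with LPS (adjusted p = 4.5e-11), the widest of the 9 genes in that comparison. Cebpd overlaps 562 exonic bases of Spidr on the opposite strand, which held 577 to 1244 counts.

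Cebpa (chr7:35119293-35121928, plus strand) was at 132, 147 and 102 CPM in the LPS- tlr4f/f libraries and at 24.4, 15.9 and 33.4 CPM in the LPS- tlr4f/f-lysM-cre ones. It was at 139.6, 171 and 149 CPM in the LPS+ tlr4f/f libraries and at 71.0, 67.4 and 73.4 CPM in the LPS+ tlr4f/f-lysM-cre ones. The headed tlr4f/f groups overlapped, and both lysM-cre groups were lower than these. Cebpa was called lower in tlr4f/f-lysM-cre without LPS as headed by a log2 fold change of -2.37 ± 0.32 (adjusted p = 0.00254) and with LPS by -1.12 ± 0.07 (adjusted p = 6.2e-08). Between the groups headed lysM-cre it was higher with LPS by 1.52 ± 0.27 on the log2 scale, and its adjusted p of 0.0102 lay just past the threshold. By RPKM, Cebpa ranked 5 of the 9 genes in both groups headed tlr4f/f and 9 in the group headed LPS- tlr4f/f-lysM-cre.

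The ratio of Cebpb to Cebpa, per transcript length, put these differences on 1 scale that library size does not touch. It was 2.42, 2.19 and 1.99 in the LPS- tlr4f/f libraries and 2.10, 1.86 and 1.86 in the LPS+ tlr4f/f ones. In the LPS- tlr4f/f-lysM-cre libraries it was 80.0, 128.5 and 54.7, and in the LPS+ tlr4f/f-lysM-cre ones 12.8, 11.4 and 9.86. The mean log2 ratio was 1.13 ± 0.14 (SD, n = 3), 0.95 ± 0.10, 6.37 ± 0.62 and 3.50 ± 0.19 in that order of groups. The groups headed tlr4f/f overlapped, and the widest gap between replicates was in the group headed LPS- tlr4f/f-lysM-cre, where Cebpa held only 507 to 1073 counts.

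The 250 bases before the RefSeq starts of both genes (GRCm38.p6, plus strand) are shown because the genes moved in opposite directions, Cebpa at chr7:35119043-35119292 and Cebpb at chr2:167688665-167688914. Capitals mark the TATA box letters TATAAA on the sense strand and, on either strand, the C/EBP core TTGCG in Cebpa and the core TGACG of the cyclic AMP response element in Cebpb.
Cebpa: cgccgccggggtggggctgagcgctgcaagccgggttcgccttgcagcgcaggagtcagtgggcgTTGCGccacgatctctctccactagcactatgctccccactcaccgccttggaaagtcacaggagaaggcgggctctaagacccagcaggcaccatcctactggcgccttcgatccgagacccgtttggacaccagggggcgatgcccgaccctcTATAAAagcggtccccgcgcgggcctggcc
Cebpb: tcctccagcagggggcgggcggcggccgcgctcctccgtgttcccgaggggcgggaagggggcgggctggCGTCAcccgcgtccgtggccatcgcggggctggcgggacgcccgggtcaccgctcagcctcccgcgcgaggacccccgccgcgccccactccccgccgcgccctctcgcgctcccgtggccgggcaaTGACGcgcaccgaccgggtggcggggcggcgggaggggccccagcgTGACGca
The Cebpa sequence held TATAAA 30 to 25 bases before the start, which 7.59% of all promoters hold, and TTGCG 185 to 181 bases before it, which 14.5% hold. The Cebpb sequence held neither and had TGACG or its reverse complement at 3 places, 180 to 176, 53 to 49 and 7 to 3 bases before the start. TGACG was found in 17.8% of promoters. G and C made up 81.6% of the Cebpb sequence and 66.4% of the Cebpa sequence. The AP-1 letters TGANTCA (6.75% of promoters) and the E box CACGTG (6.02%) were in neither, and the Cebpb sequence held the NF-kB-type letters GGGAGGGGCC 23 to 14 bases before the start, a motif in 17.6% of promoters. A match is a run of letters and not a shown binding site. Promoters of 4 of the 9 genes were searched, Cebpa, Cebpb, Runx1 and Mitf, the last with 3 starts. Csf1r was left out of this search, and Csf1r, Adgre1, Spi1, Maf and Cebpd are named without sequence.

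**Figure D3:**
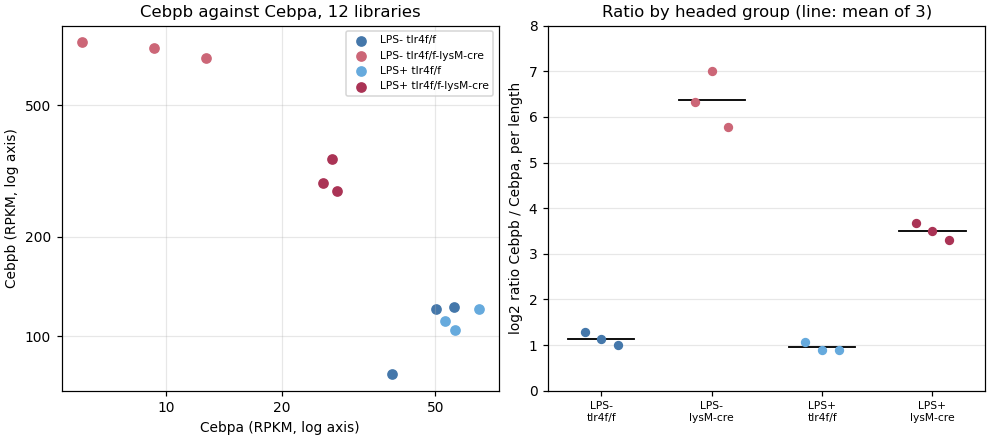
Cebpb against Cebpa in each of the 12 libraries (left, RPKM on log axes, coloured by headed group) and the log2 ratio of Cebpb to Cebpa per transcript length (right, lines at the means of 3). The ratio is near 2 in both groups headed tlr4f/f, from 9.86 to 12.8 in LPS+ tlr4f/f-lysM-cre and from 54.7 to 128.5 in LPS- tlr4f/f-lysM-cre.

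A DEG had to differ more than 2-fold at an adjusted p under 0.01. In the headed LPS comparison of tlr4f/f (a genotype difference without LPS on the exchanged reading), 0 of the 9 genes were called by edgeR, as were 0% of 14701 genes tested. An unadjusted p below 0.05 was found for 5 of the 9 and for 24.7% of all genes. DESeq2 called Maf and Cebpd of the 9, and 467 genes in all. Maf was also called when replicate 3 of the LPS- tlr4f/f libraries was left out, with 184 genes in all. The groups did not overlap for 5 of the 9 genes (Csf1r, Adgre1, Maf and Cebpd lower, Mitf higher), beside 35.2% of all genes, 17.1% lower and 18% higher.

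In the headed LPS comparison of tlr4f/f-lysM-cre (a genotype difference with LPS on the exchanged reading), 1 of the 9 genes was called, Cebpb, against 6.08% of 14234 genes (2.42% higher and 3.65% lower). At an adjusted p below 0.05 without a fold limit, Cebpa rose and Adgre1, Spi1, Maf, Cebpb and Cebpd fell, 6 of 9 against 26.7% of all genes (12.5% higher and 14.2% lower). The groups were apart for 7 of the 9, all but Csf1r and Runx1, and for 48.4% of all genes. The call of Cebpb was lost when any 1 of the LPS+ tlr4f/f-lysM-cre libraries was left out, at adjusted p values from 0.0172 to 0.02503, and all genes called then numbered 4 to 15. Maf was called beside Cebpb without replicate 1 of the LPS- tlr4f/f-lysM-cre libraries, and Cebpa without replicate 2 or 3. Of the 9 fibroblast markers 3 were called lower in this comparison, beside 3.65% of all genes. At an adjusted p below 0.05 without a fold limit 7 were lower, beside 14.2% of all genes. Their median log2 fold change was -3.79. The part of fibroblasts in the differences of the 9 genes was not tested. A single fit of all 12 libraries called Cebpa beside Cebpb. With the 3 libraries of high fibroblast markers left out of such a fit, the log2 fold change of Cebpa was 2.16. This leaves 1 LPS- tlr4f/f-lysM-cre library, whose spread is taken from the other groups.

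In the headed genotype comparison without LPS (the LPS effect in tlr4f/f on the exchanged reading), 6 of the 9 genes were called, Cebpb, Cebpd, Maf, Mitf and Spi1 higher and Cebpa lower. Of all 14635 genes tested 17.1% were called, 9.25% higher and 7.81% lower. The median log2 fold change of the 9 genes was 1.25, beside -0.08 over all genes. These 6 were also the ones with an adjusted p below 0.05, which 37.3% of all genes had, and with Adgre1 they were the 7 whose groups did not overlap, as for 54.4% of all genes. Of the 9 fibroblast markers 0 were called in this comparison, with a median log2 fold change of 2.42, and groups did not overlap for 2. They summed to more than 500 CPM in 2 of the 3 LPS- tlr4f/f-lysM-cre libraries and 1 of the LPS- tlr4f/f ones. With these 3 libraries left out and the others in a single fit, which leaves 1 LPS- tlr4f/f-lysM-cre library with its spread taken from the other groups, 7 of the 9 genes were called, these 6 and Adgre1. Leaving out 1 library at a time, 2 to 4 of the 9 genes were called. With a replicate block, Maf (adjusted p = 0.0133) and Cebpa (adjusted p = 0.0112) lost their calls, though same-numbered libraries correlated at 0.517, 0.367 and 0.0095, not all over 0.1. Without single libraries, Cebpb kept its call each time, whereas Spi1 and Mitf lost theirs each time. Cebpd lost it without replicate 3 of the LPS- tlr4f/f-lysM-cre libraries, Cebpa without replicate 1 of these or replicate 2 of the LPS- tlr4f/f ones, and Maf without replicate 2 or 3 of the former or replicate 1 or 2 of the latter.

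In the headed genotype comparison with LPS (the LPS effect in tlr4f/f-lysM-cre on the exchanged reading), 5 of the 9 genes were called, Cebpd, Maf, Adgre1 and Cebpb higher and Cebpa lower, against 21.7% of 14540 genes (10.8% higher and 10.9% lower). All 9 had an adjusted p below 0.05, as did 61.4% of all genes, and no groups overlapped for any of the 9, as for 67.4% of all genes. The summed fibroblast markers were 24.6 to 31.9 CPM and 51.5 to 66.8 CPM in these groups. The calls were the same with each library left out. These 4 comparisons share groups in pairs, so their values are given side by side and not as independent support.

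**Figure D4:**
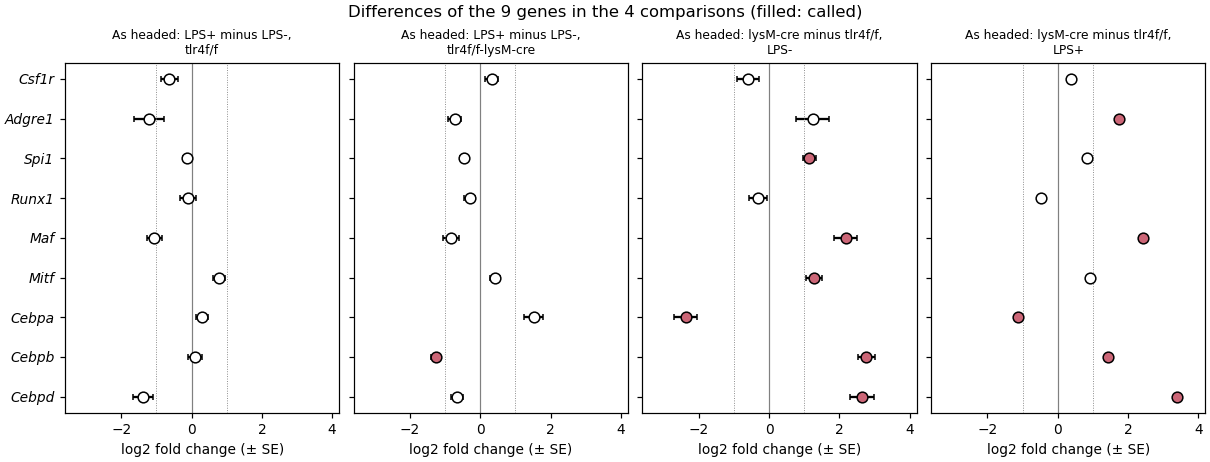
log2 fold change with its standard error (edgeR) of the 9 genes in the 4 headed comparisons, with DEGs filled and dotted lines at 2-fold. The headed LPS comparison of tlr4f/f has no DEG and the headed genotype comparisons have 6 and 5, with Cebpa to the left and Cebpb, Cebpd and Maf to the right.

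The interaction of genotype and LPS, which has the same value on both readings of the headings, was called for 0 of the 9 genes and for 1.04% of 15775 genes. Cebpb had an interaction of -1.35 ± 0.25 on the log2 scale (adjusted p = 0.0115) and Cebpa one of 1.26 ± 0.32 (adjusted p = 0.0413). Their signs were opposite. An adjusted p below 0.05 was found for 6.99% of all genes, and an unadjusted p below 0.05 for 23.5% of all genes and 3 of the 9. DESeq2 called both Cebpa and Cebpb. In edgeR, Cebpa was called without replicate 3 of the LPS- tlr4f/f-lysM-cre libraries and without the 3 libraries of high fibroblast markers (1.85), and Cebpb without replicate 3 of the LPS- tlr4f/f ones. Csf1r had the next largest value, 0.97 ± 0.33, with an adjusted p of 0.108.

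Other genes of M-CSF signalling were described by a list of 14 genes, of which 13 were tested. It held ligands, adaptors and phosphatases, and also Adam17, Cbl, Pik3cd, Plcg2 and Spred1. As headed, edgeR called 0 in either LPS comparison, with an unadjusted p below 0.05 for 4 genes of tlr4f/f cells (24.7% of all genes) and for 6 of tlr4f/f-lysM-cre cells (40.3% of all genes). Without LPS, 2 were called higher and 1 lower in tlr4f/f-lysM-cre, and with LPS 3 higher and 1 lower, 3 and 4 of 13 beside 17.1% and 21.7% of all genes, with medians of 0.59 and 0.34 on the log2 scale beside -0.08 and -0.02 over all genes. Csf1, the gene of the ligand M-CSF, was at 22.0, 6.79 and 1.96 CPM in the LPS- tlr4f/f libraries, at 273, 107 and 73.9 CPM in the LPS- tlr4f/f-lysM-cre ones, at 5.66, 6.12 and 5.87 CPM in the LPS+ tlr4f/f ones and at 33.7, 48.9 and 43.4 CPM in the LPS+ tlr4f/f-lysM-cre ones. Its transcript was thus higher in every library headed lysM-cre than in any headed tlr4f/f, called with LPS (2.83 ± 0.14, adjusted p = 5.9e-08) and not without (3.87 ± 0.98, adjusted p = 0.0238). Csf1 is also made by fibroblasts. In the libraries headed LPS+ their markers summed to 24.6 to 31.9 CPM in tlr4f/f against 51.5 to 66.8 CPM in tlr4f/f-lysM-cre, with 2 of 9 called higher. In the same library order as Csf1, they summed to 761, 71.5 and 11.8 CPM in LPS- tlr4f/f, falling as Csf1 fell. In LPS- tlr4f/f-lysM-cre they summed to 1120, 206 and 1740 CPM, highest in the library with the lowest Csf1. The part of fibroblasts in the Csf1 difference was not tested. Spred1, an inhibitor of the Ras pathway, was called higher without LPS at a log2 fold change of 1.34. Inpp5d, the phosphatase SHIP1 that opposes PI3 kinase, was called lower at -2.05 in the same comparison. Gab3, an adaptor of Csf1r, was called lower with LPS at -1.47, from 3.42 ± 0.43 to 1.23 ± 0.72 CPM (SD, n = 3).

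Of 26 other transcription factors of myeloid cells, 4 were called higher and 2 lower of the 22 tested in the headed genotype comparison without LPS, and 6 higher and 7 lower of 25 with LPS, beside 17.1% and 21.7% of all genes. In the headed LPS comparisons 0 of 23 were called by edgeR for tlr4f/f, 8 having an unadjusted p below 0.05 (24.7% of all genes), and 1 higher and 1 lower of 24 for tlr4f/f-lysM-cre (6.08% of all genes). The largest differences were those of Gfi1, which encodes a zinc-finger transcriptional repressor. It was at 3 to 6 counts in each library headed tlr4f/f. The LPS- tlr4f/f-lysM-cre libraries held 234 to 1405 counts of it and the LPS+ tlr4f/f-lysM-cre ones 158 to 313 counts. Gfi1 was called by edgeR in both headed genotype comparisons, at adjusted p values of 0.0012 and 7.8e-07. Tfeb, a factor of the MITF family, was called lower without LPS at a log2 fold change of -2.10. Its relatives Tfec and Tfe3, picked after their values were seen, went with Mitf in that comparison, Tfec called higher at 3.25 (adjusted p = 0.00537) and Tfe3 at 0.83 (adjusted p = 0.0285), which is under 2-fold. Bhlhe40, a repressor that limits Il10, was called lower with LPS at -2.59. In the headed LPS comparison of tlr4f/f-lysM-cre, Fli1, an ETS factor, was called higher at 1.24 and Klf4, a monocyte factor, lower at -2.14.

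Genes of macrophage identity and of the lysosome and osteoclasts are known targets or companions of these factors. Of 20 macrophage identity genes tested, 1 was called higher in tlr4f/f-lysM-cre without LPS as headed and 4 higher with LPS, beside 17.1% and 21.7% of all genes, and none was called lower. An adjusted p below 0.05 without a fold limit was met by 37.3% of all genes without LPS and 61.4% with LPS. Of the 20 genes, 3 were higher and 1 lower without LPS, and 11 higher and 5 lower with LPS. Among the lower ones with LPS, picked after their values were seen, were the lipid receptor Trem2 at -0.90, the Fc receptor Fcgr3 at -0.87 and the mannose receptor Mrc1 at -0.997. The medians of 0.49 and 0.27 stood beside -0.08 and -0.02 over all genes. Cybb, the NADPH oxidase subunit whose promoter PU.1 binds, was called in both, from 767 ± 296 to 3476 ± 6.44 CPM without LPS and from 920.5 ± 129 to 3837 ± 176 CPM with LPS (SD, n = 3). In the headed LPS comparison of tlr4f/f-lysM-cre, 2 of the 20 were called lower (3.65% of all genes), of which Siglec1, a sialic-acid receptor, had the larger log2 fold change of -2.68. Of 14 MITF and osteoclast genes, 13 were tested. The headed genotype comparisons called 1 higher and 1 lower without LPS and 1 higher and 2 lower with LPS, against the same 17.1% and 21.7%. At an adjusted p below 0.05, 1 was higher and 1 lower without LPS, and 3 higher and 9 lower with LPS. This compares with 37.3% and 61.4% of all genes. Their medians were -0.13 and -0.41, beside -0.08 and -0.02 over all genes. Clcn7, a lysosomal chloride transporter, was the gene called higher in both, at log2 fold changes of 1.42 and 1.40. Nfatc1, the master factor of osteoclasts, was called lower at -2.13 without LPS and Atp6v0d2, a proton pump subunit, at -2.04 with LPS. Dcstamp, needed for osteoclast fusion, was called higher in the headed LPS comparison of tlr4f/f-lysM-cre, from 7.70 ± 1.16 to 127 ± 14.7 CPM. In the headed LPS comparison of tlr4f/f, edgeR called 0 genes of either list. An unadjusted p below 0.05 was found for 5 of the 20 and 6 of the 13, beside 24.7% of all genes.

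The genes whose levels ran most like each member over the 12 libraries were found by the root mean square difference of centred log2 CPM, and the 12 libraries share 4 groups, so this describes the group pattern. Smg8 (0.0804) and Tceb3 (0.0826) were closest to Spi1, and Gm15655 (0.102) and Xaf1 (0.256) to Maf, where Gm15655 is the overlapping antisense gene. Csf1r ran with Surf6 (0.127) and Wdyhv1 (0.140), Adgre1 with Mrpl52 (0.237) and Nr1h3 (0.252), and Runx1 with Zfp839 (0.137) and Sema6c (0.140). Sema6c was near the floor, at a mean of 0.22 CPM, where the 0.5 CPM added before the log narrows differences. Atp6v1e1 (0.193) and Slc12a4 (0.199) were closest to Mitf, and Camk2g (0.190) and Tipin (0.215) to Cebpa. Fndc3a (0.177) and Ifitm1 (0.197) were closest to Cebpb, and Slfn8 (0.299) and Slfn5 (0.346) to Cebpd. With Pearson's correlation as the measure, 5 of these 18 genes were found again.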

How the data were processed

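RNA from 12 BMDM libraries was sequenced by the authors on an rRNA-depleted or poly(A) library, since the labels name both, with an unstranded kit. Reads were trimmed with Trimmomatic 0.36 (submitters' processing notes), aligned to mm10 with HISAT2 and counted with HTSeq. The deposited values are raw read counts per transcript row, 115140 rows, in which rows of a gene share reads. The Length column of the deposited table gave RPKM. The row with the highest total was kept for each of 43131 genes, after 7551 of 7596 Ensembl IDs had been matched to symbols. Libraries were grouped by headings, and every comparison was also read with the 2 doubtful headings exchanged.

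Tests ran in R 4.3.3, using edgeR 4.0.16 on the counts (TMM after filterByExpr, robust quasi-likelihood test, Benjamini-Hochberg adjustment over all genes tested), on the 6 libraries of each comparison or all 12 for the interaction, and called at a fold above 2 and an adjusted p below 0.01, the study's criteria, where DESeq was used. Named genes are the 9 members, Tlr4, Lyz2 and Il1b, the most changed called gene per direction of 4 gene lists, the 2 genes most like each member and the most abundant marker of each list shown. Genes and lists were chosen with earlier results of these data known. Alternatives used DESeq2 1.42.0, limma voom 3.58.1 with quality weights, RLE factors, no filter (1 count in total), at least 10 counts per library, a joint fit of the 12 libraries, a replicate block, an adjusted p below 0.05, summed transcript rows, exchanged headings and each library left out. Leaving out libraries above 500 CPM of fibroblast genes was added after seeing the data. Same-numbered libraries correlated in their deviations at 0.147, 0.164 and 0.333 between the groups headed LPS+. In each other comparison at least 1 such pair was below 0.1. Libraries of unlike number reached 0.207 between the groups headed LPS-, so pairing is not shown. The fit with a block was run for every comparison. Any pairing is read from the data, not the labels. Intervals are standard errors over libraries, and reads carry no molecular identifiers, so a count is not a number of molecules. The fits were tested on simulated data in which 200 genes had a set log2 fold change of 2. They recovered 58.5% of these for LPS in tlr4f/f and 71% for LPS in tlr4f/f-lysM-cre. Recovery was 27% and 87% for the genotypes without and with LPS, and 52% for the interaction. A gene not called is therefore not shown to be unchanged, and counts of calls are not on 1 scale between comparisons. Sequences are from RefSeq and gene positions from the GENCODE annotation of the same build. Proteins were not analysed here.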

Additional observations from a re-analysis of the deposited data

Results flagged for a closer look

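Cebpb and Cebpa were set apart for unlike headed LPS effects in the genotypes, as estimated by the interaction term. It was -1.35 on the log2 scale for Cebpb (edgeR adjusted p = 0.0115) and 1.26 for Cebpa (adjusted p = 0.0413). Neither gene was called, since a call needed an adjusted p below 0.01. Both were below 0.05, as were 6.99% of all genes. For Cebpb the LPS effect as headed was 0.10 ± 0.20 for tlr4f/f, and for tlr4f/f-lysM-cre it was -1.27 ± 0.13, lower in 3 of 3 libraries of the latter. For Cebpa it was 0.29 ± 0.16 and 1.52 ± 0.27, higher in 3 of 3 libraries of the latter. The interaction has the same value when the headings are exchanged.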

How the results depend on the processing

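With the 2 headings exchanged, the counts of the 9 genes and of all genes called became 6 and 2497 for LPS in tlr4f/f, 5 and 3161 for LPS in tlr4f/f-lysM-cre, 0 and 0 for the genotypes without LPS, and 1 and 865 for the genotypes with LPS. The log2 fold changes that turned were, for LPS in tlr4f/f, Adgre1 1.25, Spi1 1.14, Maf 2.18, Cebpa -2.37 and Cebpd 2.64, and for LPS in tlr4f/f-lysM-cre, Adgre1 1.76, Spi1 0.82, Maf 2.43, Cebpa -1.12, Cebpb 1.43 and Cebpd 3.38. For the genotypes without LPS they were Adgre1 -1.22, Spi1 -0.13, Maf -1.07, Cebpa 0.29 and Cebpd -1.38, and for the genotypes with LPS, Adgre1 -0.73, Spi1 -0.47, Maf -0.84, Cebpa 1.52, Cebpb -1.27 and Cebpd -0.66. Of the other alternatives, limma voom turned Runx1 (0.0941) and Cebpb (-0.0212) for LPS in tlr4f/f.

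DESeq2 called 2 of the 9 genes and 467 genes for LPS in tlr4f/f, 2 and 2002 for LPS in tlr4f/f-lysM-cre, 7 and 3992 for the genotypes without LPS, and 2 and 657 for the interaction. An adjusted p below 0.05 without a fold limit gave 187, 3804, 5464, 8929 and 1102 genes in the order LPS in tlr4f/f, LPS in tlr4f/f-lysM-cre, genotypes without LPS, genotypes with LPS and interaction, and of the 9 genes 6, 9 and 2 for LPS in tlr4f/f-lysM-cre, the genotypes with LPS and the interaction. All 12 libraries in a fit gave 74, 4251 and 2045 genes for LPS in tlr4f/f and the genotypes without and with LPS. For LPS in tlr4f/f, voom called 28 genes and no filter 34. Each of voom, no filter, all 12 libraries and the fit without libraries of high fibroblast markers called 2 of the 9 genes for LPS in tlr4f/f-lysM-cre. The last called 131, 1421, 3786 and 605 genes for LPS in tlr4f/f, LPS in tlr4f/f-lysM-cre, the genotypes without LPS and the interaction, with 1 of the 9 for the interaction (Cebpa). Voom, a minimum of 10 counts and the block each called 1 for the interaction (Cebpb).

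With the replicate block, LPS in tlr4f/f-lysM-cre had 0 of the 9 genes and 212 genes called, and the genotypes without LPS kept 4 of the 9 (Cebpb, Cebpd, Mitf and Spi1). The block changed no call of the 9 genes for the genotypes with LPS, at 3246 genes. Same-numbered libraries there correlated at 0.147 to 0.333.

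With 1 library left out, the 9 genes called and all genes called ranged from 0 to 1 and 0 to 184 for LPS in tlr4f/f, from 0 to 2 and 4 to 1178 for LPS in tlr4f/f-lysM-cre, from 2 to 4 and 1038 to 1682 for the genotypes without LPS, from 5 to 5 and 3017 to 3152 for the genotypes with LPS, and from 0 to 1 and 10 to 306 for the interaction. Runx1 (-0.28 to 0.19) and Cebpb (-0.10 to 0.21) changed sign for LPS in tlr4f/f, and Runx1 (-0.47 to 0.0123) for the interaction. The cause of these changes was not tested.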
